A study of Mus musculus with 10 samples.

Results

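The 9 genes described here are Cldn5, Ocln, Cdh5, Pecam1, Esam, Kdr, Flt1, Tek and Tie1, which are widely used to recognise endothelial cells or their junctions, out of 21887 protein-coding genes in the RefSeq annotation of GRCm38.p6 (the coordinates of mm10). They were named as marks of cells that a sort for neuronal nuclei should remove, and not for their values. Earlier results of these data were, however, known when they were chosen. H3K4me3, histone H3 trimethylated at lysine 4, was mapped by chromatin immunoprecipitation and sequencing in nuclei carrying NeuN, a neuronal nuclear protein, sorted from hippocampal area CA1 of male mice aged 3 months. The 4 transgenic libraries come from CamkdeltaC transgenic mice, carrying CaMKIIδC, a splice form of a calcium/calmodulin-dependent kinase whose overexpression in the heart is a model of heart failure, and the 4 control libraries from wildtype littermates. The labels name no promoter for the transgene and give no drug or vehicle label to any library, although the treatment text speaks of vorinostat and vehicle in drinking water. The titles, the genotype labels and the genotype in the deposited names agree for all 8 libraries, but the letter A or C that accompanies each library stands for opposite genotypes in the descriptions and in those names, so the direction of every difference below rests on the titles. The 2 input samples, 1 per genotype, were not analysed here.

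Endothelial cells line blood vessels, and in the brain they form the blood-brain barrier. Claudin-5 and occludin are membrane proteins of the tight junctions that seal neighbouring endothelial cells, and VE-cadherin (Cdh5) holds their adherens junctions. The vascular endothelial growth factor receptors Kdr and Flt1 and the angiopoietin receptor Tek with its relative Tie1 carry the signals that grow and stabilise vessels. H3K4me3 sits at the starts of active or poised genes and is common at starts rich in CpG dinucleotides, so its presence at a gene does not by itself show transcription.

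The peak lists held 51903 to 66811 peaks in the control and 60388 to 102285 in the transgenic libraries, the longest being transgenic replicate 1. Control replicates 2 and 3 and transgenic replicates 1 and 4 had 19.5% to 30.7% of their peaks on chromosome X, and the other 4 libraries had 2.00% to 2.21%. All 9 genes are autosomal. The lists hold no read counts, so depth is unknown, and a window without a peak shows only that none was called. All 10 neuron markers examined, Rbfox3 (which encodes NeuN) among them, carried a peak in every library. The labels do not state whether each library is a different animal, and every p-value below therefore reflects only how these 8 libraries vary, which may be technical.

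Breadth was measured as the bp covered by peaks within 2 kb to each side of a gene end, a window of 4001 bp, using the end with the higher mean coverage. By this measure the 9 genes spanned the range from broad to unmarked. Ocln, Kdr and Cldn5 had a peak in all 8 libraries, Flt1 in 7, Esam in 4 and Cdh5 in 1, while Pecam1, Tek and Tie1 had none in any. Having a peak in all 8 libraries was thus a property of 3 of 9 genes (33.3%), against 61.9% of all protein-coding genes. Between 4 and 6 of the 9 were marked in each control library and 4 in each transgenic library. Over all protein-coding genes the shares were 65.7% to 67.4% in control and 67.0% to 67.9% in transgenic libraries. Counts above 4 came from Cdh5 in control replicate 1 and from 37 to 217 bp at the window's edge of Esam. With 1 kb to each side, 4 were marked in each control library and 3 or 4 in each transgenic library. At that width 3 of the 9 had a peak in every library, against 58.5% of all protein-coding genes. Over the whole gene with 2 kb to each side, a setting added after the data were seen, 5 of 9 had a peak in every library (all but Pecam1, Tek, Cdh5 and Tie1), against 66.6% of all protein-coding genes, and Tie1 alone had none anywhere.

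**Figure D1:**
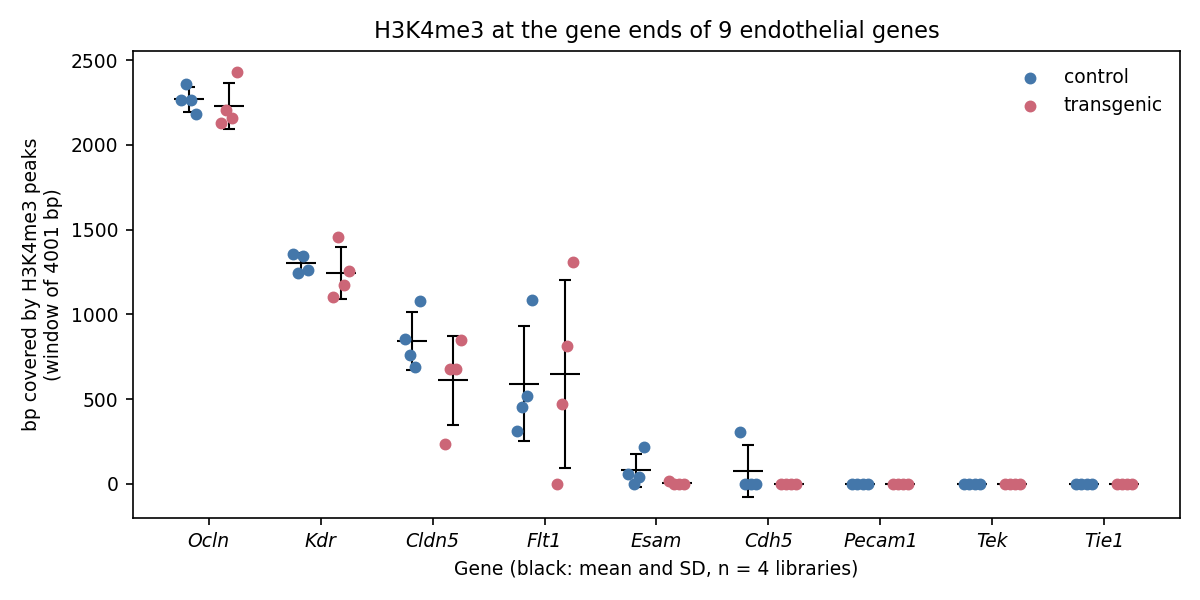
H3K4me3 breadth of the 9 endothelial genes: the y axis gives bp covered by peaks in the gene-end window of 4001 bp, each point is 1 library (control blue, transgenic red), and black marks give the mean and SD of 4. Ocln lies between 2131 and 2430 bp and Kdr between 1100 and 1457 bp in every library, Cldn5 and Flt1 spread widely, and Pecam1, Tek and Tie1 stay at 0.

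RefSeq promoter sequences (GRCm38.p6, 250 bases before to 50 after an annotated start) were found for 6 of the 9 genes, and are shown because they differ in CpG content along with the mark. Pecam1, Cdh5 and Esam had no entry. Each is written 5′ to 3′ on the gene's strand, in order from the broadest H3K4me3 to none, with every CpG in capitals.
Ocln, chr13:100552449-100552748, minus strand, 24 CpG, peak within 2 kb in 8 libraries: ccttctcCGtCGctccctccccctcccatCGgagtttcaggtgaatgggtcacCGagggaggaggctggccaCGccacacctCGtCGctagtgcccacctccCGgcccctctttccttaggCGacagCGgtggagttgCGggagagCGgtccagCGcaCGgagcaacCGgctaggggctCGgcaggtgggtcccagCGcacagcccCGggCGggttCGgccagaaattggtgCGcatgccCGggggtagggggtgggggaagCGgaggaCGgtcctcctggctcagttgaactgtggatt
Kdr, chr5:75978406-75978705, minus strand, 19 CpG, 8 libraries: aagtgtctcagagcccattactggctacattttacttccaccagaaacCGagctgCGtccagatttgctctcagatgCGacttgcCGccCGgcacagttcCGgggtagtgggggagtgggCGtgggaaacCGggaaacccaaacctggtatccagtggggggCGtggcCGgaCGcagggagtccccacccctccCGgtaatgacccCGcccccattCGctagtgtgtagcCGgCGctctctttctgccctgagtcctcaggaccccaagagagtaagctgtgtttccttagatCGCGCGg
Cldn5, chr16:18776597-18776896, plus strand, 12 CpG, 8 libraries: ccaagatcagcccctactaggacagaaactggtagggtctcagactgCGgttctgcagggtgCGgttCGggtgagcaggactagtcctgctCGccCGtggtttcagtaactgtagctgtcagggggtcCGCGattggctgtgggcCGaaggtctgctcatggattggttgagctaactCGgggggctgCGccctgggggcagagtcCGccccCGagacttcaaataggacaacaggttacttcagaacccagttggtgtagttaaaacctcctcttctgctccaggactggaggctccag
Flt1, chr5:147725962-147726261, minus strand, 29 CpG, 7 libraries: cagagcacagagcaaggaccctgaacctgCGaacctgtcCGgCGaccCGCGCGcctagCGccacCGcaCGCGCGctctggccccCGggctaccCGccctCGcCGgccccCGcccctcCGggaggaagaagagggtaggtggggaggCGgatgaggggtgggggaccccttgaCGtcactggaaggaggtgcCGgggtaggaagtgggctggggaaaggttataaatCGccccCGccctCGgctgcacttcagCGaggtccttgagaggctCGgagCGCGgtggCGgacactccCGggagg
Tie1, chr4:118489800-118490099, minus strand, 7 CpG, 0 libraries: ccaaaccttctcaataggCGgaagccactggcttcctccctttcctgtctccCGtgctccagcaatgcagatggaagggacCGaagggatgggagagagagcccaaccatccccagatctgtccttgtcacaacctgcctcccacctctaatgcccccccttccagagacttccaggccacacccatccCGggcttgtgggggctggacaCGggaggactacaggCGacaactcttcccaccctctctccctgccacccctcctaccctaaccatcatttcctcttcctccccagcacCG
Tek, chr4:94739039-94739338, plus strand, 3 CpG, 0 libraries: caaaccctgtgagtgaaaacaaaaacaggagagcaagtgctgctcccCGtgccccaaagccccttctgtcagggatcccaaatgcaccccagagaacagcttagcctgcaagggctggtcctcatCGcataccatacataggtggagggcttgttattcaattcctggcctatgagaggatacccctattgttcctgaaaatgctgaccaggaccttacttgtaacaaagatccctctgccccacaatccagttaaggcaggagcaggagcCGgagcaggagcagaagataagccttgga

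The 4 genes marked in at least 7 libraries had 12 to 29 CpG in these 300 bases and the 2 unmarked genes had 3 and 7, while the median over 21263 promoters of protein-coding genes was 13. Among those promoters, a peak within 2 kb in all 8 libraries was present for 13.1% with 0 to 4 CpG, 39.3% with 5 to 9, 84.9% with 10 to 19 and 95.3% with 20 to 67. The 4 marked genes thus fell in the CpG classes where 84.9% and 95.3% of promoters carried the mark throughout, and Tie1 and Tek in those with 39.3% and 13.1%. Flt1, with the most CpG of the 6, lacked a peak in 1 library. The second annotated start of Ocln, at 100552718, had 17 CpG and a peak over all 300 bases in every library as well. The letters GGAA, the core motif of the ETS transcription factors that include Erg and Fli1, were counted on both strands (GGAA or TTCC). They occurred 9 times at Tie1, 5 at Kdr, 4 at Flt1, 2 at Tek, 2 at Ocln and 0 at Cldn5, and 95.7% of all promoters held at least 1.

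**Figure D2:**
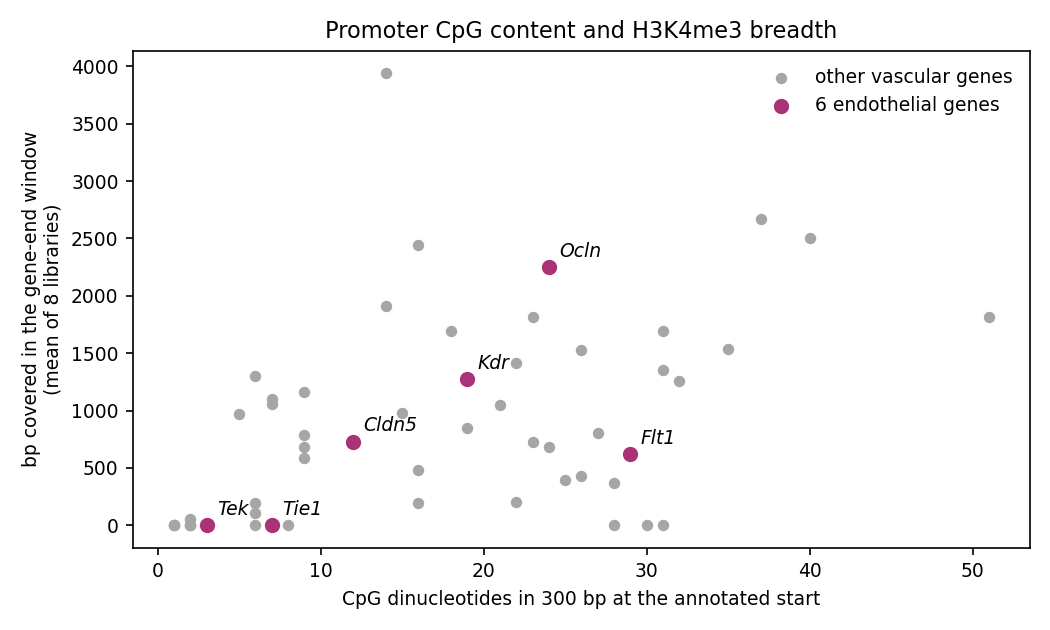
Promoter CpG content against H3K4me3 breadth: the x axis counts CpG dinucleotides in 300 bp at the most CpG-rich annotated start, the y axis gives the mean bp covered in the gene-end window over 8 libraries, and grey points are genes of the other vascular lists. Tek (3 CpG) and Tie1 (7 CpG) lie at 0 bp, and Ocln (24 CpG) reaches 2250 bp.

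Among the junction genes, Ocln (chromosome 13, 100496504 to 100552718) carried the broadest mark. Its window held 2265, 2360, 2267 and 2181 bp in control replicates 1 to 4 and 2131, 2204, 2160 and 2430 bp in transgenic replicates 1 to 4. The values of the groups overlapped and none stood far from the rest. The peak ran without a break across both annotated starts, at 100552718 and 100552498, and the joined extent over libraries was 100551104 to 100553623. Its deposited fold enrichment was 24.4 to 48.7, and in each library it ranked within the top 5.29% to 13.3% of peaks by −log10 p. Of the 13538 genes marked in all 8 libraries, 76.4% had a lower mean than the 2250 bp of Ocln.

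Cldn5, the main claudin of brain endothelium, is a short gene of 1416 bp on chromosome 16 (18776847 to 18778262). Control replicates 1 to 4 had 853, 759, 686 and 1078 bp, and transgenic replicates 1 to 4 had 232, 680, 678 and 848 bp. Transgenic replicate 1 was the lowest of the 8, transgenic replicates 2 and 3 lay just under the lowest control, and transgenic replicate 4 lay within the control range. The peaks lay inside the gene, between 134 and 1211 bp from its annotated start, with summits 436 to 863 bp in. They covered 0 of the 300 bases printed above in any library. The peak ranked in the top 22.8% to 37.5% of its own list in 7 libraries and at 90.1% in transgenic replicate 1, where its deposited fold enrichment was 3.65 against 6.29 to 12.5 in the other 7. The lists differ in length, so no change was read from these ranks or folds. Only 6.50% of the genes marked in all 8 libraries had a lower mean breadth than the 727 bp of Cldn5.

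Esam, which encodes an adhesion molecule of endothelial tight junctions (chromosome 9, 37528089 to 37538319), had a peak that straddled the edge of its window. The window alone held 59, 0, 37 and 217 bp in control replicates 1 to 4 and 18, 0, 0 and 0 bp in transgenic replicates 1 to 4. Over all libraries joined, the covered stretch lay 1784 to 3677 bp inside the gene (37529873 to 37531766) and was present in all 8 libraries. It covered 1255, 1281, 1268 and 1706 bp in control and 1695, 1417, 1198 and 1054 bp in transgenic replicates 1 to 4, so that the groups overlapped fully. It was a single peak in 6 libraries and 2 peaks in control replicates 1 and 2, the strongest of which ranked in the top 19.5% to 31.8% of each list, and the few bp in the window are not a measure of its breadth. The nearer end of the neighbouring gene Msantd2, at 37526113, also falls in that window, but no peak lay there.

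The other junction and adhesion genes were close to unmarked. Cdh5 (chromosome 8, 104101613 to 104144504), whose product VE-cadherin is specific to endothelium, had 304 bp in control replicate 1 and 0 bp in the other 7 libraries. That peak (104099911 to 104100214) lay outside Cdh5, before its lower end, within the overlapping noncoding gene Gm29682. Pecam1, which encodes the adhesion molecule CD31 (chromosome 11, 106654213 to 106715281), had no peak at either end. Inside the gene, a weak site 20312 to 20865 bp from its lower end (106674525 to 106675078) was called in 5 libraries, control replicates 1 and 2 and transgenic replicates 1, 2 and 4, with 200 to 282 bp. It ranked at 62.4% to 86.7% from the top of its lists, and single calls of 214 bp in control replicate 4 and 200 bp in transgenic replicate 1 lay elsewhere in the gene.

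Among the receptor genes, Kdr, which encodes the main signalling receptor for VEGF-A (chromosome 5, 75932827 to 75979072), was marked evenly. Control replicates 1 to 4 had 1355, 1243, 1346 and 1264 bp and transgenic replicates 1 to 4 had 1100, 1457, 1175 and 1253 bp. The lowest and the highest of the 8 were both transgenic, and the control values lay between them. The peak spanned 75977585 to 75979041 in all libraries joined and covered all 300 bases around the annotated start at 75978455 in every library. It ranked in the top 13.5% to 22.6% of peaks. The noncoding gene Gm32727 starts at 75977332 on the opposite strand and runs through this stretch, and peaks carry no strand, so the mark was not divided between Kdr and Gm32727.

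Flt1, which encodes a VEGF receptor that also acts as a decoy (chromosome 5, 147561604 to 147726438), had the most variable mark. Control replicates 1 to 4 had 312, 450, 517 and 1086 bp and transgenic replicates 1 to 4 had 0, 468, 813 and 1310 bp. Both extremes were transgenic, and the groups overlapped. The mark was broken into 2 peaks each in control replicates 3 and 4, and over all libraries joined it reached from 147725113 to 147726503. The 300 bases around the annotated start, at 147726011, were overlapped in 4 libraries and fully in transgenic replicate 4 alone. The strongest of these peaks in each library ranked at 23.6% to 55.6% from the top of its list.

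Flt1 also carried peaks deep inside the gene. A site at 147659817 to 147660435, 66003 to 66621 bp from the gene end, was called in 7 of 8 libraries (all but control replicate 4), with 216 to 619 bp. It lies within the noncoding gene Gm35383 (147659690 to 147668446, plus strand), near its start and inside Flt1. A site at 147671672 to 147672426 was called in 4 libraries, control replicates 2, 3 and 4 and transgenic replicate 2, with 200 to 569 bp. A further site was called in 2 libraries and another in 1. All these sites together covered 259, 862, 1053 and 569 bp in control and 438, 985, 334 and 362 bp in transgenic replicates 1 to 4.

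Tek and Tie1, the receptor tyrosine kinases of the angiopoietin system, lacked the mark at both gene ends in all 8 libraries. Tek (chromosome 4, 94739086 to 94874976) had single weak peaks inside the gene in transgenic replicate 2 (215 bp) and transgenic replicate 3 (200 bp), at different places. Tie1 (chromosome 4, 118471191 to 118489849) had no peak within the gene or 2 kb of it in any library.

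**Figure D3:**
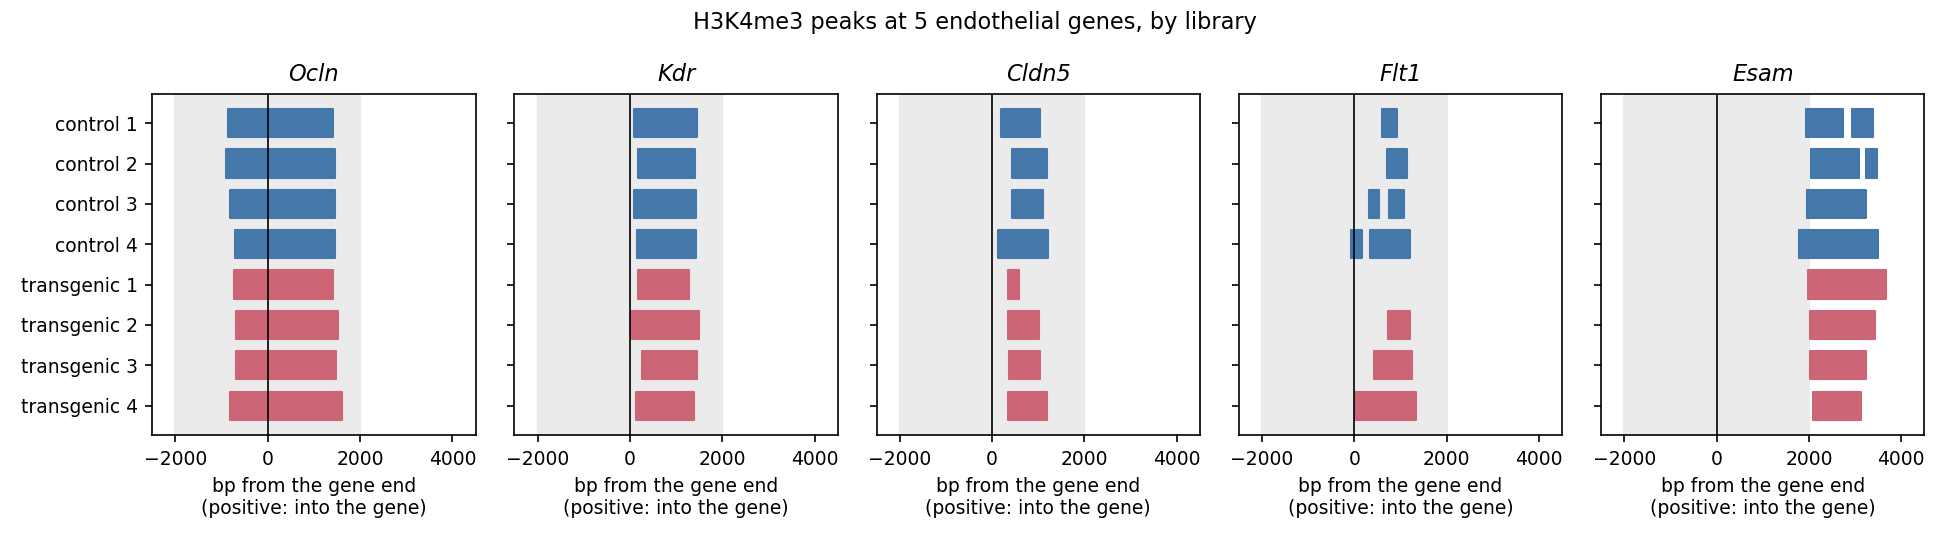
Peaks at the 5 most marked endothelial genes: the x axis is the distance in bp from the gene end used, positive into the gene, each row is 1 library (control blue, transgenic red), bars are deposited peaks and grey is the window of 2 kb to each side. Ocln and Kdr peaks keep their edges over libraries, Flt1 has none in transgenic replicate 1, and the Esam peak starts near the window's edge.

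No endothelial gene passed the test for a difference in breadth between transgenic and control libraries. Of 14753 genes with a peak in at least 4 libraries, limma with Benjamini-Hochberg adjustment called 0 at 0.05 (0%), and 5 of the 9 endothelial genes were among those tested. Without adjustment 195 genes (1.32%) had p under 0.05 on the lower and 413 (2.8%) on the higher side, none of them an endothelial member. Ordinary variances called 5 genes, again with no member. Differences below are on the log2(bp + 100 bp) scale after centring each library, transgenic minus control, which understates the change of thinly covered genes.

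The mean ± SD breadth of Ocln was 2231 ± 136 bp over the 4 transgenic and 2268 ± 73.1 bp over the 4 control libraries. Its log2 difference was -0.04 with an SE of 0.06 (limma adjusted p = 1.00). Its 95% confidence interval, as a ratio of bp + 100 bp, ran from 0.884 to 1.06. Kdr averaged 1246 ± 154 bp against 1302 ± 56.8 bp (log2 -0.09 ± 0.09, limma adjusted p = 1.00), and its ratio ran from 0.819 to 1.09.

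Cldn5 averaged 610 ± 264 bp against 844 ± 170 bp (log2 -0.52 ± 0.28, limma adjusted p = 1.00), and its ratio ran from 0.451 to 1.08. Without transgenic replicate 1 the transgenic mean was 735 ± 97.6 bp (n = 3) and the log2 difference -0.22 (limma adjusted p = 0.938). Flt1 averaged 648 ± 553 bp against 591 ± 341 bp, a log2 difference of -0.32 ± 0.70 whose sign is opposite to that of the means because transgenic replicate 1 had 0 bp, and its ratio ran from 0.269 to 2.40. Without that library the difference was 0.44 (limma adjusted p = 0.938). Over the whole Esam gene with 2 kb to each side, the difference was -0.08 ± 0.17 (limma adjusted p = 1.00), against -0.66 ± 0.88 for the few bp in its window.

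All 5 tested members lay below 0 on the centred scale (median -0.32), where 53.6% of all tested genes did (median -0.01). That median is the Flt1 value, whose sign came from the 0 bp of transgenic replicate 1. The 5 also include the Esam window value (-0.66), which is not a measure of that gene's breadth (-0.08 over the whole gene). Ocln, Kdr and Cldn5 lay at -0.04, -0.09 and -0.52. Without transgenic replicate 1, 4 of the 5 lay below 0 and their median was -0.07, and with any 1 other library left out the median lay between -0.61 and -0.13, the latter without control replicate 4. At none of the 5 were all transgenic values under all control values (0.481% of tested genes) or over them (1.86%). Fewer endothelial nuclei in the sort and less H3K4me3 per nucleus cannot be told apart in such bulk chromatin. The share of peaks on chromosome X divides each group into a pair of libraries on either side. Among the 4 libraries with the low share, the log2 difference was -0.47 at Cldn5, -0.03 at Kdr, -0.06 at Ocln, 0.01 at Flt1 and -1.20 at Esam. Among the 4 with the high share it was -0.56, -0.14, -0.03, -0.64 and -0.12 in the same order, with 2 against 2 libraries and no test in either set. The high set holds transgenic replicate 1, and with transgenic replicate 4 alone against its 2 control libraries the difference was 0.10 at Cldn5 and 1.17 at Flt1, both of opposite sign, and -0.15 at Kdr, -0.03 at Ocln and -0.33 at Esam.

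Inside genes, away from the window, peaks in at least 4 libraries were found in 5429 genes, of which limma called 2 (0.0368%), neither an endothelial gene on these lists. They were Cyp4a31, a cytochrome P450 gene (log2 1.83), and Vmn2r65, a vomeronasal receptor gene (log2 2.02), named after their values were seen. The count was 0 with a replicate block, with equal numbers of top-ranked peaks and with the chromosome X share as a term, and 0 or 1 with any library left out. Without adjustment p was under 0.05 for 1.97% of the tested genes on the lower and 4.59% on the higher side, and for 0 of the 3 members tested here. Pecam1 averaged 233 ± 183 bp against 162 ± 108 bp (log2 0.18 ± 0.68, limma adjusted p = 1.00), which turned to -0.23 without control replicate 3 and to -0.15 without transgenic replicate 1. The Flt1 sites averaged 530 ± 307 bp against 686 ± 347 bp (log2 -0.37 ± 0.44, limma adjusted p = 0.986). The Esam value by this measure (log2 1.15 ± 1.18, limma adjusted p = 0.976) depends on which peaks touched the window's edge. Of the 3, only Flt1 lay below 0, as 52.5% of tested genes did, and none had all transgenic values under (0.755% of tested genes) or over (3.98%) all control values.

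**Figure D4:**
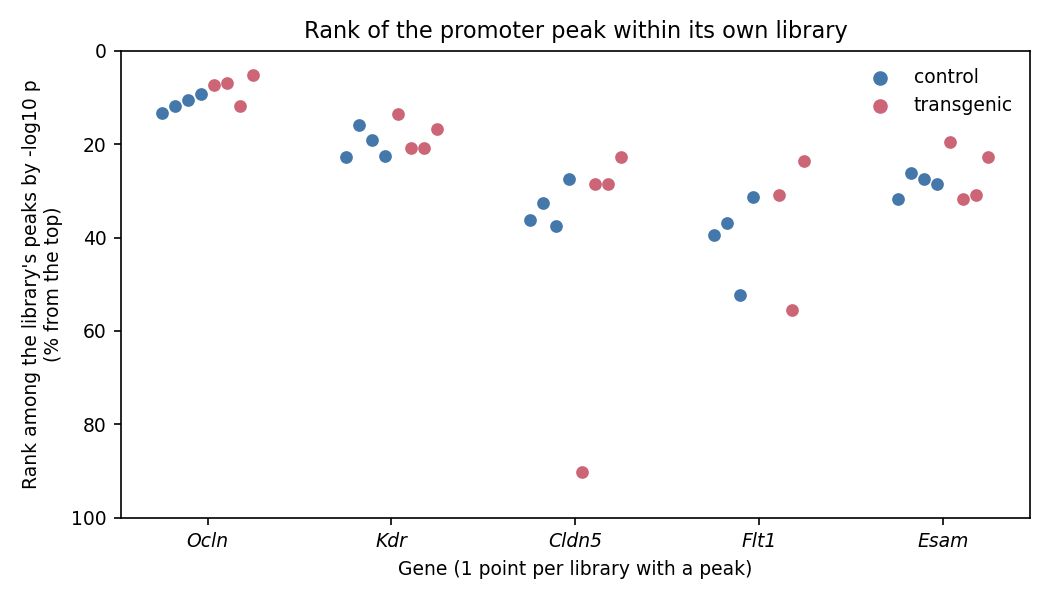
Rank of the strongest peak at the gene end (for Esam the peak at the window's edge) in its own list: the y axis gives the position by deposited −log10 p in % from the top (0 at the top of the axis), and each point is 1 library (control blue, transgenic red). Ocln stays within the top 13.3% and Kdr within the top 22.6%, and the Cldn5 peak of transgenic replicate 1 lies at 90.1%.

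Most partners of these genes carried the mark, as did most protein-coding genes. A peak in all 8 libraries was found at 61.9% of all protein-coding genes. The share was 87.5% for the VEGF family, 60% for the angiopoietin and Tie partners and 87.5% for the junction partners. Of 8 VEGF ligands and further receptors, 7 had a peak in all 8 libraries, led by Nrp1, a co-receptor for VEGF and semaphorins with 3939 ± 59.6 bp (SD over 8 libraries), and Nrp2 with 2672 ± 117 bp. Nrp2 differed by -0.08 and Pgf, which encodes placental growth factor, by -0.48 (log2). Of 5 angiopoietin and Tie partners, Angpt1 (1147 ± 115 bp), Angpt2 (439 ± 234 bp) and Svep1 (1298 ± 131 bp) were marked in all libraries. Ptprb, the endothelial phosphatase that acts on Tek, and Angpt4 had no peak at a gene end. Inside the gene Ptprb had peaks in 7 libraries (mean 583 bp over 8), and Angpt4 had none. Angpt2, a ligand of Tek, differed by -0.60 ± 0.38 and Angpt1 by -0.13 ± 0.11 (log2 ± SE). Of 16 junction partners 14 were marked in all libraries, with Jam3, a junctional adhesion gene, at 1993 ± 212 bp and Jup, which encodes plakoglobin, at 1915 ± 199 bp. Ctnnd1, without a peak at a gene end, had peaks inside the gene in all 8 libraries (mean 3163 bp). Jup differed by -0.14 (log2).

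Other genes known from endothelium fell into marked and unmarked sets with none between. Of 24, 8 had a peak in all 8 libraries (Cd34, Nos3, Clec14a, Ramp2, Itm2a, Mfsd2a, Abcg2 and Slc2a1) and 16 had none in any. These were 33.3% and 66.7% of the list, against 61.9% and 26.5% of all protein-coding genes. The unmarked set holds Vwf, Emcn, Eng, Robo4, Cd93, Icam2 and Adgrl4, and the marked set holds Cd34, Nos3 and Clec14a. Widely used endothelial genes thus lay in both sets. Slc2a1, the glucose transporter gene of the blood-brain barrier, was the broadest (1696 ± 223 bp), followed by Ramp2, a receptor activity gene (1423 ± 143 bp). Over whole genes 12 of 24 had no peak, while Egfl7, Abcb1a and Plvap had one in all 8 libraries inside the gene. Among the 15 with a promoter sequence, the 6 marked genes had 5 to 28 CpG (median 12.5) and the 9 unmarked 1 to 31 (median 2), the highest being Egfl7. CpG was counted at the most CpG-rich annotated start, and the mark at the gene end, which need not be the same place. Cd34 differed by -0.17 and Nos3, the endothelial nitric oxide synthase gene, by -0.08 (log2).

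Transcription factors of endothelium were marked in all libraries for 5 of 12 genes (41.7%, against 61.9% of all protein-coding genes), and a further 5 in 4 to 7 libraries. Klf4 (2501 ± 538 bp) and Foxq1 (1909 ± 592 bp) were the broadest. Erg, an ETS factor of endothelium, had a peak in 7 libraries and differed by -0.56 ± 0.63, and Tal1, in 4 libraries, by -0.41 ± 0.89 (log2 ± SE). Without transgenic replicate 1, where Erg had 0 bp, the Erg difference was 0.08, and that of Tal1 ranged from -0.84 to 0.15 with a library left out, the only positive value being without control replicate 4. Mural cells, the pericytes and smooth muscle cells around vessels, had 4 of 12 markers with a peak in all libraries (33.3%). Among them Vtn had 1165 ± 111 bp and Ndufa4l2 997 ± 217 bp. Pdgfrb, the pericyte receptor gene, differed by 0.97 ± 0.55 and Vtn by -0.14 ± 0.07 (log2 ± SE). Without control replicate 3, where Pdgfrb had 0 bp, the Pdgfrb difference was 0.46. With any other library left out it lay between 0.77 and 1.19.

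None of these vascular genes passed (0 called in each of the 6 lists, limma with Benjamini-Hochberg adjustment). The same fit called 0 of all 14753 tested genes, so this count is not particular to the vascular lists. Higher and lower members numbered 1 and 6 for the VEGF family (median log2 -0.03), 1 and 2 for the angiopoietin partners (-0.13), 6 and 9 for the junction partners (-0.05), 2 and 6 for other endothelial genes (-0.04), 5 and 5 for the transcription factors (-0.03) and 2 and 6 for mural markers (-0.09). Over all tested genes the median was -0.01, with 53.6% lower. Without transgenic replicate 1 the numbers higher and lower were 3 and 4, 1 and 2, 7 and 8, 3 and 5, 9 and 1, and 5 and 3 in the same order. The transcription factors (median 0.23) and mural markers (median 0.15) then lay mostly above 0. Without transgenic replicate 3 these lists numbered 0 and 10 (median -0.18) and 3 and 5 (median -0.16). Without transgenic replicate 4 they numbered 0 and 10 (median -0.26) and 2 and 6 (median -0.20). The direction of both lists thus depended on the library left out.

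**Figure D5:**
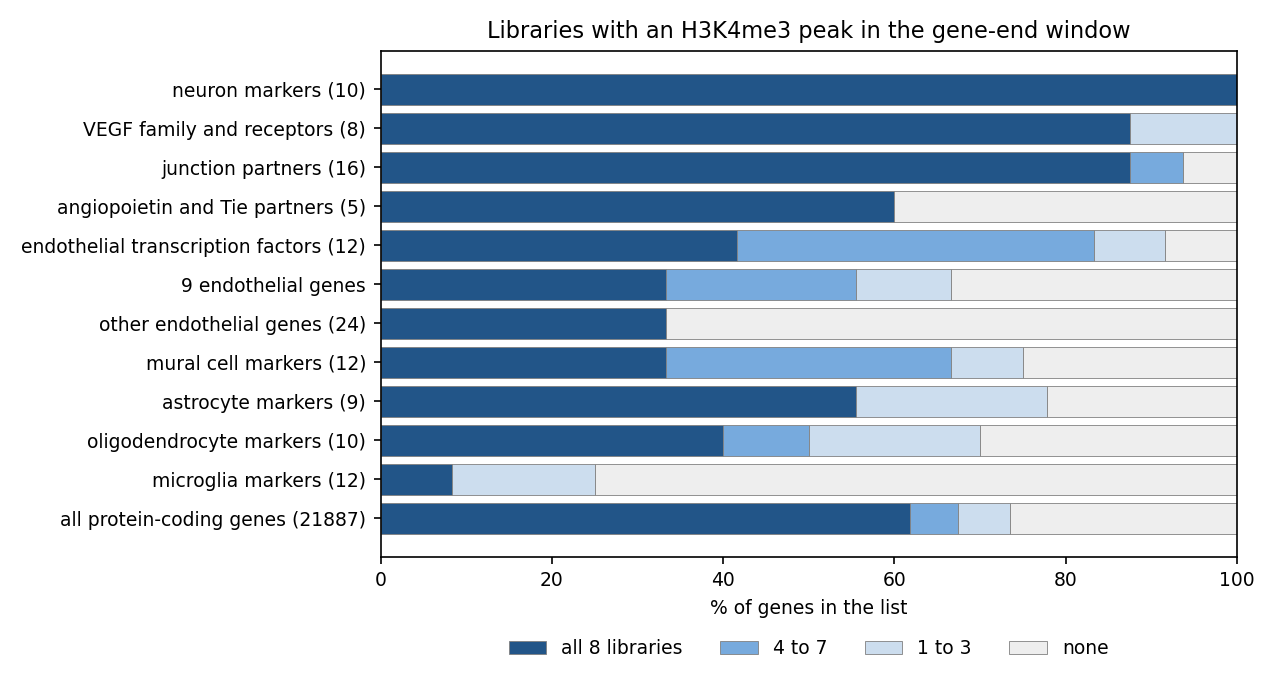
Share of each gene list by the number of libraries with a peak in the gene-end window: the x axis gives % of the list's genes, with the number of genes in parentheses. All 10 neuron markers were marked in all 8 libraries, against 3 of 9 endothelial genes, 1 of 12 microglia markers and 61.9% of all protein-coding genes.

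The marker lists of other cells gave a reference for these counts. A peak in all 8 libraries was found for 10 of 10 neuron markers, 5 of 9 astrocyte, 4 of 10 oligodendrocyte and 1 of 12 microglia markers, and for 61.9% of all protein-coding genes. The broadest of the neuron, astrocyte and oligodendrocyte lists were Neurod6 (3453 ± 140 bp), Sox9 (2918 ± 184 bp) and Mbp (2330 ± 95.6 bp), so breadth comparable to that of Ocln occurred in other lists too. Summed over the 9 endothelial genes the windows held 4812 to 5826 bp in control and 3481 to 5841 bp in transgenic libraries, the lowest being transgenic replicate 1. Over all protein-coding genes they held 22949231 to 25563772 bp in control and 22726574 to 25885942 bp in transgenic libraries. Transgenic replicate 1 was the lowest there too. Over the neuron markers they held 25939 to 27774 and 25510 to 27370 bp. For mural markers the sums were 4186 to 5998 bp in control and 3136 to 6323 bp in transgenic libraries, with Tagln, Higd1b and Anpep at 0 in all. For astrocyte markers they were 7393 to 8147 and 7566 to 8704 bp (Aldh1l1 and S100b at 0), for oligodendrocyte markers 5177 to 6980 and 4531 to 6172 bp (Mog, Mag and Mobp at 0) and for microglia markers 1088 to 1327 and 1254 to 1552 bp, with 9 of 12 at 0, Csf1r, P2ry12 and Tmem119 among them. Of the markers tested, 1 oligodendrocyte marker was higher and 4 lower (median log2 -0.26, and -0.29 without transgenic replicate 1). The numbers were 4 and 6 for neuron markers, 2 and 3 for astrocyte markers and 1 and 0 for microglia markers. Over all tested genes 53.6% were lower (median -0.01). After adjustment limma called 0 of these markers, as it called 0 of all tested genes. Cnp, a myelin enzyme gene named after its values were seen, had 1039, 1076, 1029 and 1012 bp in control and 859, 881, 852 and 876 bp in transgenic replicates 1 to 4. All its transgenic values lay under all control values, as for 0.481% of tested genes (log2 -0.26 ± 0.09, limma adjusted p = 1.00). The oligodendrocyte median of -0.26 is this Cnp value, and not a separate result. The part of residual non-neuronal nuclei in these values was not tested.

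The promoters whose centred breadth over the 8 libraries was most like that of a member were chosen by Pearson correlation among 14752 others, as a description. They were Gpr4 (r = 0.99) and Slc16a11 (r = 0.99) for Cldn5, Spata24 (r = 0.97) and Ccnf (r = 0.95) for Kdr, and Trp53inp2 (r = 0.98) and Hdgfl2 (r = 0.96) for Ocln. The 8 points are libraries that share depth and quality across all genes.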

How the data were processed

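For every library the authors deposited a headerless peak table laid out as MACS2 writes it. Its deposited columns are the position, a score in whole numbers, the fold enrichment (a ratio to the caller's background) and 2 values on the −log10 scale, for p and for q. The submitters' processing notes name mm10 and these tools: limma, DiffBind, MACS2, deepTools 3.0.1, SAMtools 1.3.1, Bowtie2 2.0.2 and FastQC 0.11.5. Settings, peak filters and background libraries were not stated there. Peaks were ranked within a list by −log10 p and filtered, as an alternative, by −log10 q; fold enrichment is printed as the authors' value of a peak and entered no test, and the score was not used.

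Overlapping or touching peaks were merged. Gene ends came from RefSeq (GRCm38.p6), and the end with the higher mean coverage within 2 kb to each side was used. Breadths were taken as log2(bp + 100 bp), shifted so that the genes marked in all 8 libraries had the same median in each, and fitted with limma 3.58.1 in R 4.3.3 (trended, robust, Benjamini-Hochberg at 0.05) over all genes with a peak in at least 4 libraries; the fit was tested on simulated data. The 4 transgenic and 4 control libraries were grouped by title. The members, the 11 lists (127 genes, all found) and the rule for named genes were chosen with earlier results of these data known. That rule took all members, the genes of smallest p and of broadest coverage, 2 each per vascular list, genes sharing a window, the 2 promoters most like each member marked in all 8, and the broadest gene of each other marker list. Alternatives covered pseudocount, centring, peak threshold, window, filter, variance, block and each library left out. Values of 2 genes that this rule names are not reported here.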

Additional observations from a re-analysis of the deposited data

Results flagged for a closer look

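Of 22 groups of 4 libraries checked at the members, 2 held a library far from the other 3, where chance gives about 1 in 20. Each gene was checked in its window and over the whole gene. These values are the same at Cldn5 and Kdr, so the groups are not independent checks. Over the whole Esam gene with 2 kb to each side, control replicate 4 had 1706 bp, against 1255 to 1281 bp in the other control libraries. Over Pecam1, control replicate 3 had 0 bp, against 200 to 232 bp in the other control libraries.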

How the results depend on the processing

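The window fit called 0 genes in the main setting and under all alternatives but ordinary variances, which called 5. The gene body fit called 2, and 14 with ordinary variances, 0 with a replicate block, 0 with equal numbers of top-ranked peaks, 0 with the chromosome X share as a term (added after the data were seen) and 0 to 1 with a library left out. A peak in all 8 libraries was found for 3 members, for 5 over whole genes with 2 kb to each side and for 2 to 4 under the other settings, the 2 (Kdr and Ocln) at a −log10 q of at least 3 or with equal numbers of top-ranked peaks. Of all protein-coding genes, 61.9% had such a peak in the main setting and 66.6% over whole genes. The share was 61.4% at that q, 59.9% with equal numbers of peaks, 58.5% with 1 kb and 65.0% with 5 kb. Cldn5, Kdr, Ocln and Esam kept a negative window difference under every alternative that could be fitted, Cldn5 between -0.95 and -0.22. With a library left out Flt1 ranged in the window from -0.77 to 0.44, and Pecam1 inside the gene from -0.23 to 0.68. Flt1 turned to 0.44 without transgenic replicate 1, and Pecam1 to -0.23 without control replicate 3 and to -0.15 without transgenic replicate 1; for none was the cause tested beyond these values. No member passed under any alternative (adjusted p of at least 0.821). Same-numbered libraries did not deviate together (correlations of -0.16 to 0.17, against -0.38 to 0.30 for differently numbered ones). These 4 correlations are too few to show whether the numbers stand for a shared batch or litter. With the replicate block the window fit again called 0 genes. Unknown depth limits every window without a peak.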
